A study of Mus with 96 samples.

Results

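Livers of Hep-Bmal1KO mice were compared with livers of Hep-Bmal1WT mice at ZT14, in the early dark phase. Both groups had been fed cdHFD, a high-fat feed with cholesterol and without choline that produces steatohepatitis in mice, for 2 weeks. The comparison holds 8 of the 96 libraries of the series, 4 per genotype, chosen by the diet, genotype, and ZT in their titles. The Hep-Bmal1KO mice carried Alb Cre/+ with Bmal1 flx/flx, and their Hep-Bmal1WT littermates carried Alb +/+ with Bmal1 flx/flx, so both groups carried the floxed alleles. The background strain was C57BL/6J, and the mice were 8 to 10 weeks old. WT replicates 1, 2, and 3 were male and WT replicate 4 was female, whereas KO replicates 1 and 2 were male and KO replicates 3 and 4 were female. Cre is driven by the albumin promoter, which directs recombination to hepatocytes, and the other cells of the liver should keep Bmal1. BRB-seq reads the 3′ end of polyadenylated RNA from whole liver, where fewer cells of a type and less RNA per cell cannot be told apart. The gene counts of a library summed to between 5264167 and 9718615, and levels are given as CPM, the gene's counts scaled to library size after TMM normalization.

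BMAL1, encoded by Arntl, pairs with CLOCK or NPAS2 to activate genes that carry E-boxes, among them the Per and Cry repressors, the REV-ERB receptors Nr1d1 and Nr1d2, and the output factor Dbp. The PER and CRY proteins close the main feedback loop, and the REV-ERBs repress Arntl and Npas2 in turn. In hepatocytes this clock times bile acid synthesis, drug metabolism, fat and sugar handling, and amino acid breakdown around the feeding phase, which in mice falls into the night.

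Over genes chosen for the purpose, the expression of 2 libraries lay nearer the other genotype label. Each library was placed between the median of the other WT libraries (0) and the median of the other KO libraries (1), with genes weighted by the squared difference of those medians. Over 20 genes chosen for their genotype difference at the other 5 times of day on cdHFD, WT replicate 1 stood at 1.03 and KO replicate 1 at -0.33, whereas WT replicates 2 to 4 lay between -0.35 and 0.28 and KO replicates 2 to 4 between 0.86 and 1.28. Over the 19 clock genes WT replicate 1 stood at 0.86 and KO replicate 1 at 0.06, but WT replicate 2 also lay at 0.65, so the clock genes separated the labels less well at this time. The sex labels matched Xist and Y-linked genes in all 8 libraries. The Arntl counts cannot check the deletion, because the reads come from the 3′ end of the transcript and not from the floxed exon. The well names put the WT libraries in plate column 5 and the KO libraries in plate column 11, so column and genotype cannot be told apart.

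**Figure D1:**
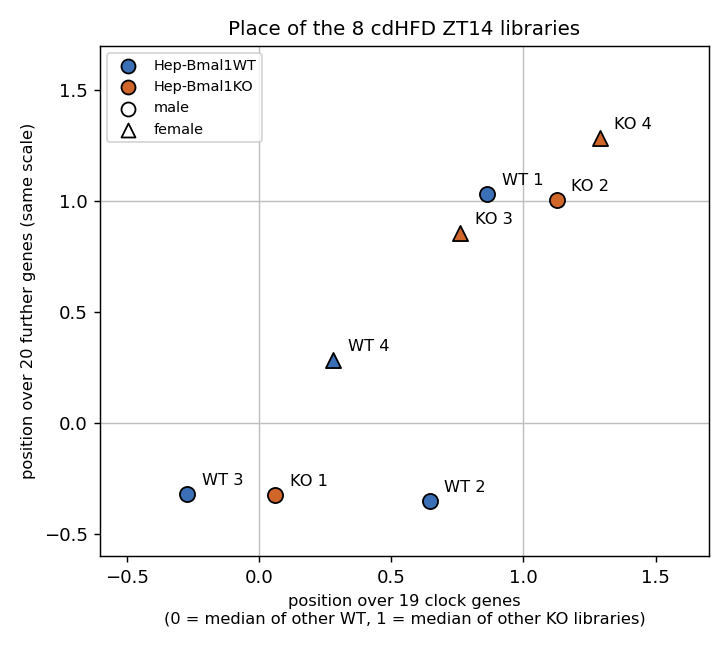
Position of each of the 8 cdHFD ZT14 libraries between the other WT libraries (0) and the other KO libraries (1), over 19 clock genes (x axis) and 20 further genes chosen at the other times of day (y axis), with color for the label and shape for sex. WT replicate 1 lies among the KO libraries at 1.03 on the y axis, and KO replicate 1 lies beside WT replicates 2 and 3 at -0.33.

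With all 4 libraries of each label, no gene passed the threshold of an adjusted p under 0.05 (edgeR quasi-likelihood test with sex as a term and Benjamini-Hochberg adjustment), which is 0 of 15548 genes tested. At an unadjusted p under 0.05 there were 626 genes, or 4.03%, and DESeq2 called 1 gene (403 at an unadjusted p under 0.05). That gene was Nr0b2, which encodes the bile acid-induced repressor SHP. Its WT values were 34.1, 52.9, 56.3, and 74.7 CPM and its KO values were 20.5, 8.60, 31.0, and 32.1 CPM for replicates 1 to 4, so every KO library lay below every WT library. The log2 fold change was -1.51 (SE 0.23, n = 4 per label), with an adjusted p of 0.0989 in edgeR and 2.36e-06 in DESeq2. The CPM values of the labels did not overlap in 190 genes with KO above (1.22%) and 194 genes with WT above (1.25%). The count of calls depended on the low-count filter and on single libraries, with 75 calls when every gene with at least 1 count was kept, 59 without KO replicate 1, and 5 without WT replicate 1.

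Without the replicate 1 libraries, 3 against 3, edgeR called 307 genes (1.97%), of which 170 were higher in Hep-Bmal1KO (1.09%) and 137 were lower (0.881%). At an unadjusted p under 0.05 there were 1563 genes, or 10.1%. These p-values follow a choice of libraries that was made from their own expression, so they are too small by an amount that was not measured, and the calls describe the 6 libraries. Reordering the labels of 3 against 3 could give no two-sided p below 0.1. The smaller p-values and the standard errors given here rest on a spread that edgeR shares in part across genes. Across all genes tested, 1142 (7.34%) lay above WT in every one of the 3 KO libraries and 1049 (6.75%) lay below. The number of calls fell to 91 without the sex term and to 37 when all cdHFD libraries shared one estimate of the spread, and it lay between 151 (without KO replicate 2) and 397 (without KO replicate 3) when 1 further library was left out.

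With the 2 libraries put back, the median log2 fold change moved from 1.06 to 0.57 for the 170 higher genes and from -0.84 to -0.34 for the 137 lower genes. The 6 libraries that chose these genes are part of both values.

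Of the 307 genes, 15 were called in 3 against 3 under every one of 12 other settings, which were DESeq2, its size factors, a stricter and a looser count filter, no sex term, a spread shared by the cdHFD libraries, and each of the 6 libraries left out. Higher in Hep-Bmal1KO were Ntrk2, Hectd2os, Spon2, Got1, Slc13a3, Gstm2, Agxt, and Lpl. Lower were Cyp2a5, Fitm1, Dio1, Elovl6, Khk, Tkfc, and Ces2g. Agxt, Tkfc, and Ces2g are named for this reason and were chosen after their values were seen.

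**Figure D2:**
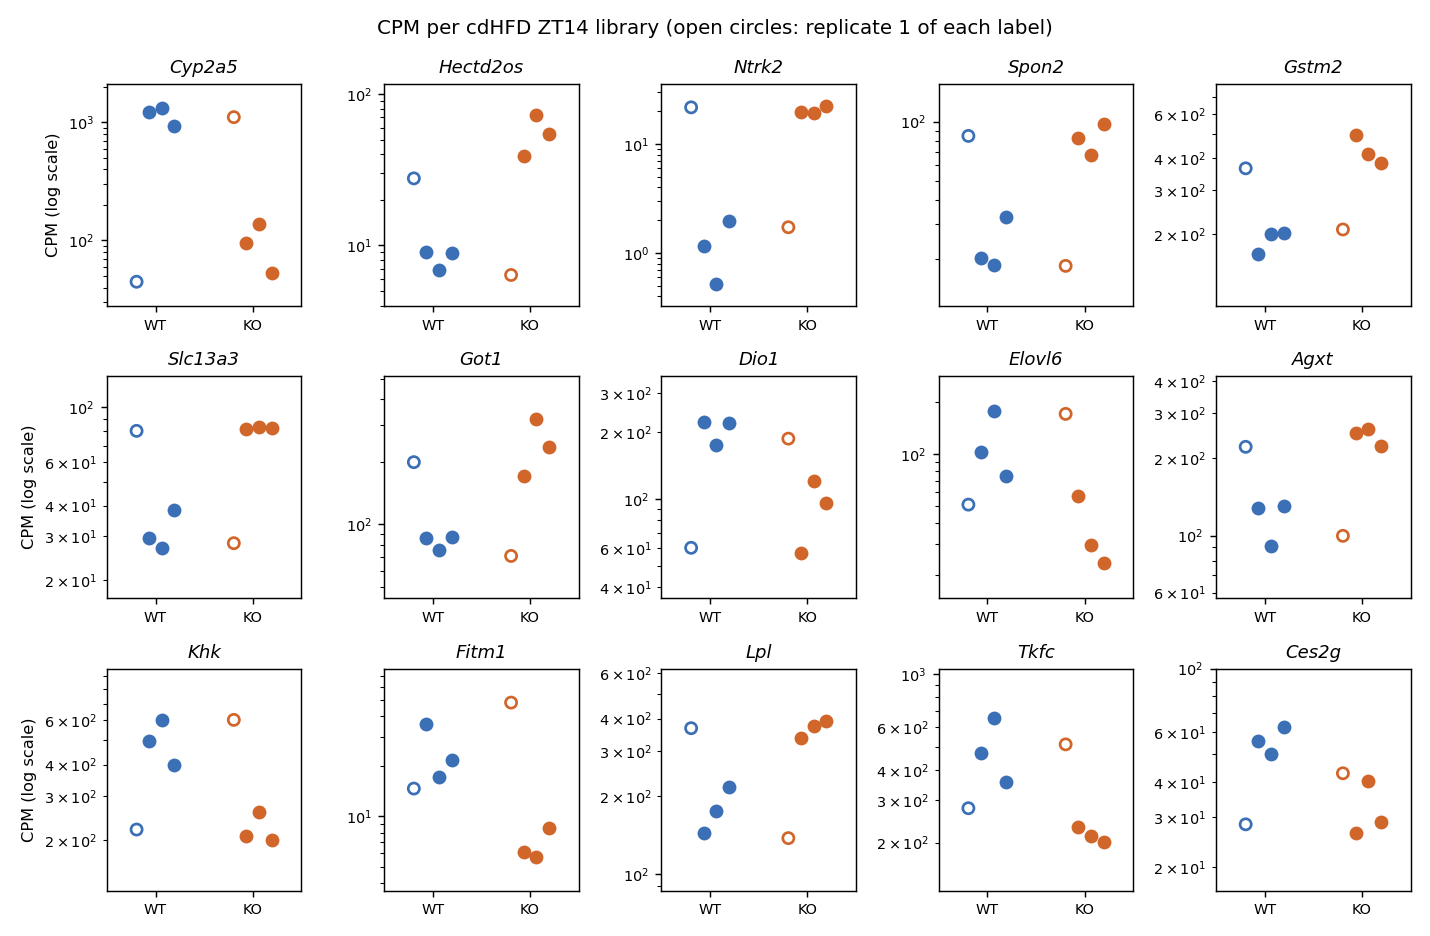
CPM (log axis) of the 15 genes called under every setting, in each of the 4 WT and 4 KO libraries on cdHFD at ZT14, with replicate 1 of each label as an open circle. In each panel the filled WT and KO circles do not overlap, and in Cyp2a5 the open WT circle at 44.8 CPM and the open KO circle at 1105 CPM lie on the other label's side. The genes were chosen by calls in the libraries of the filled circles, so that gap is no added evidence. Over all genes the 3 KO libraries lay above WT in 7.34% and below in 6.75%.

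The largest fall of these was in Cyp2a5 (chromosome 7, 26835339 to 26843264, GRCm38), a cytochrome P450 that oxidizes coumarin and nicotine. It stood at 1225, 1327, and 939 CPM in WT replicates 2 to 4 and at 95.3, 137, and 52.9 CPM in KO replicates 2 to 4. WT replicate 1 was at 44.8 and KO replicate 1 at 1105 CPM, each within or beyond the range of the other label. The log2 fold change was -3.52 in 3 against 3 (SE 0.21, adjusted p = 9.29e-14) and -1.54 in 4 against 4 (SE 0.81, adjusted p = 1). Ntrk2 (chromosome 13, 58806472 to 59133970), which encodes the neurotrophin receptor TrkB, showed the opposite order. Its values were 1.16, 0.525, and 1.98 CPM in WT replicates 2 to 4 and 19.7, 19.3, and 22.4 CPM in KO replicates 2 to 4, with 21.8 CPM in WT replicate 1 and 1.73 CPM in KO replicate 1. The 3 against 3 log2 fold change of Ntrk2 was 3.95 (SE 0.31, adjusted p = 1.20e-10).

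Dio1, the deiodinase that converts thyroxine to its active form, stood at 223, 175, and 219 CPM in WT replicates 2 to 4 and at 57.1, 120, and 95.5 CPM in KO replicates 2 to 4 (log2 -1.40, SE 0.16, adjusted p = 8.69e-07). Lpl, the lipase that frees fatty acids from circulating triglyceride, stood at 144, 175, and 218 CPM against 336, 373, and 390 CPM (log2 0.94, SE 0.13, adjusted p = 1.87e-05). For both genes WT replicate 1 lay on the KO side, at 60.2 CPM of Dio1 and 367 CPM of Lpl, and KO replicate 1 on the WT side, at 187 and 138 CPM. Dio1, Lpl, and Ntrk2 are among the 20 genes that placed the libraries. Their replicate 1 values are therefore part of that placement and add nothing to it. Spon2, a secreted matrix protein, rose by 1.71 on the log2 scale (SE 0.17), and Slc13a3, a dicarboxylate transporter, rose by 1.32 (SE 0.15). Hectd2os, an antisense transcript, rose by 2.56 (SE 0.20). Its reads cannot be told apart from those of its partner gene unless strand was used in counting, which the sources used here do not give.

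Among the 19 clock genes, 3 were called in 3 against 3 (1.97% of all genes were), each of which lost its call under at least 1 setting. Arntl (chromosome 7, 113178471 to 113314126) stood at 17.4, 14.0, and 21.9 CPM in WT replicates 2 to 4 and at 6.26, 9.35, and 9.40 CPM in KO replicates 2 to 4, with 5.17 CPM in WT replicate 1 and 10.04 CPM in KO replicate 1. Its log2 fold change was -1.26 (SE 0.22, adjusted p = 5.09e-04 in 3 against 3). The 3 values of each label did not overlap, as in 6.75% of all genes with WT above. WT replicate 1 lay below all of these values, and KO replicate 1 lay between the labels. Npas2, the alternative partner of BMAL1, stood at 2.12, 1.40, and 4.94 CPM in WT replicates 2 to 4 and at 10.6, 8.83, and 13.2 CPM in KO replicates 2 to 4, with 12.4 and 0.65 CPM in WT and KO replicate 1. It rose by 1.80 on the log2 scale (SE 0.33, adjusted p = 8.12e-04). Per1 rose by 1.30 (SE 0.31, adjusted p = 0.0172), but its value in the only WT female, 2.63 CPM against 6.57 and 8.40 CPM in the WT males, carried the call, and without that library the log2 fold change was 0.54 (adjusted p = 0.7499).

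The other clock genes were not called. Dbp stood at 18.5, 11.9, and 13 CPM in WT replicates 2 to 4 and at 14.2, 12.6, and 14.1 CPM in KO replicates 2 to 4, and the ranges overlapped (log2 -0.03, SE 0.22, adjusted p = 0.995). Cry1 had 40.4, 35.3, and 32.9 CPM against 36.8, 35.2, and 41.9 CPM (log2 0.09, SE 0.16, adjusted p = 0.938). The log2 fold change was -0.21 for Nr1d2 (SE 0.25), 1.13 for Nr1d1 (SE 0.48), 0.01 for Per2 (SE 0.21), and 0.10 for Clock (SE 0.21). Of 12 clock-controlled output genes 1 was called higher (1.09% of all genes were) and 1 lower (0.881%). Alas1, the first enzyme of heme synthesis, rose by 0.75 (SE 0.14, adjusted p = 0.00124), and Gys2, the liver glycogen synthase, fell by 0.95 (SE 0.15, adjusted p = 1.14e-04).

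The genotype effect on some of the clock genes differed between diets at the same time of day. In 8 chow-fed mice at ZT14, 4 per label, edgeR called 1239 genes (7.97%). Dbp was at 62.8 ± 45.4 CPM in WT and 11.6 ± 4.08 CPM in KO (SD, n = 4), a log2 fold change of -2.20 (SE 0.19, adjusted p = 7.21e-10). Nr1d2 was at 25.99 ± 2.95 and 5.31 ± 1.28 CPM (log2 -2.26, SE 0.20), and Cry1 was at 14.1 ± 6.55 and 40.6 ± 5.75 CPM (log2 1.59, SE 0.18). Tested as the genotype by diet term over the 14 ZT14 libraries left, where 41 genes (0.264%) were called higher and 68 (0.437%) lower, the effect on cdHFD minus that on chow was 2.54 for Dbp (adjusted p = 0.00276), 1.96 for Nr1d2 (0.00369), 2.42 for Nr1d1 (0.0389), -1.60 for Cry1 (0.00563), -3.65 for Npas2 (0.00276), and -2.38 for Arntl (0.0157). With all 16 libraries the adjusted p was 0.113 for Arntl and stayed under 0.05 for the other 5. Over the 14 libraries the term was called for 2 of 3 clock activators, 1 of 8 repressors, and 1 of 4 output factors that include Dbp. Of 4 nuclear receptors that include the REV-ERBs it was called higher for 2 and lower for 1. The remaining clock genes were not called in this term. Arntl was at 2.27 ± 1.89 CPM in chow WT and 4.75 ± 1.22 CPM in chow KO, a log2 fold change of 1.15 (SE 0.41) that was not called (adjusted p = 0.0834), so its direction was opposite to that on cdHFD. Npas2 was at 0.31 ± 0.27 CPM in chow WT and 15.1 ± 1.99 CPM in chow KO, so it was higher in KO on both diets, by log2 5.46 on chow.

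**Figure D3:**
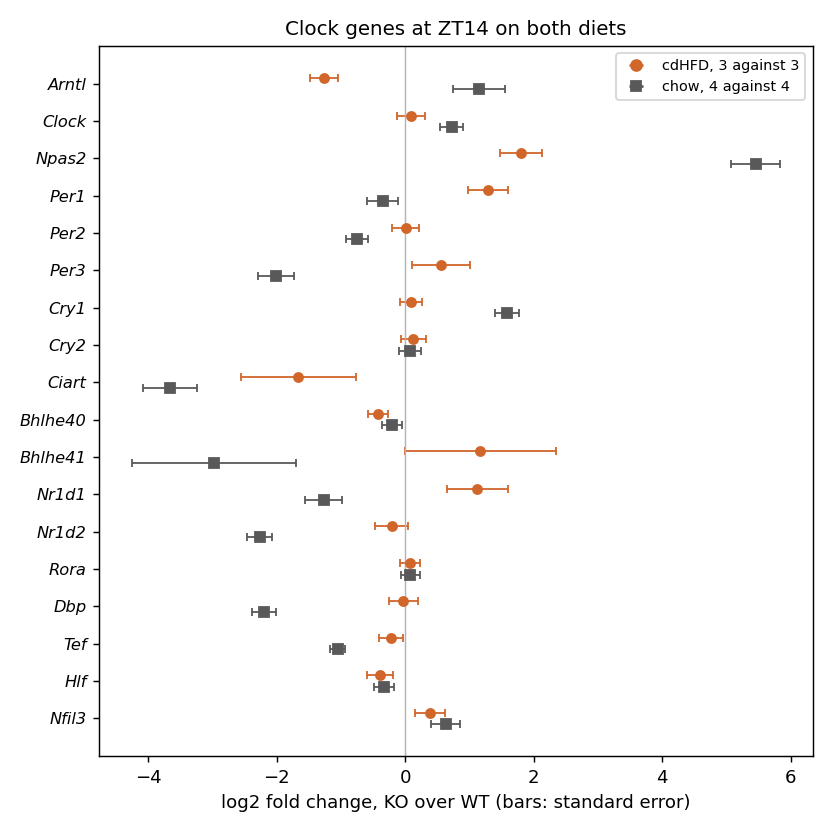
Log2 fold change of KO over WT at ZT14 for 18 clock genes, on cdHFD in 3 against 3 (circles) and on chow in 4 against 4 (squares), with the standard error as bars. The cdHFD points of Dbp (-0.03), Nr1d2 (-0.21), and Cry1 (0.09) lie near 0, and their chow points lie at -2.20, -2.26, and 1.59.

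The calls in 3 against 3 were then counted over lists of genes by function, which hold a minority of the 307 genes. The background for every list count in 3 against 3 is the share over all genes, 1.09% called higher and 0.881% called lower. At an unadjusted p under 0.05 it is 10.1% in either direction. The median log2 fold change over all genes was 0.01.

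**Figure D4:**
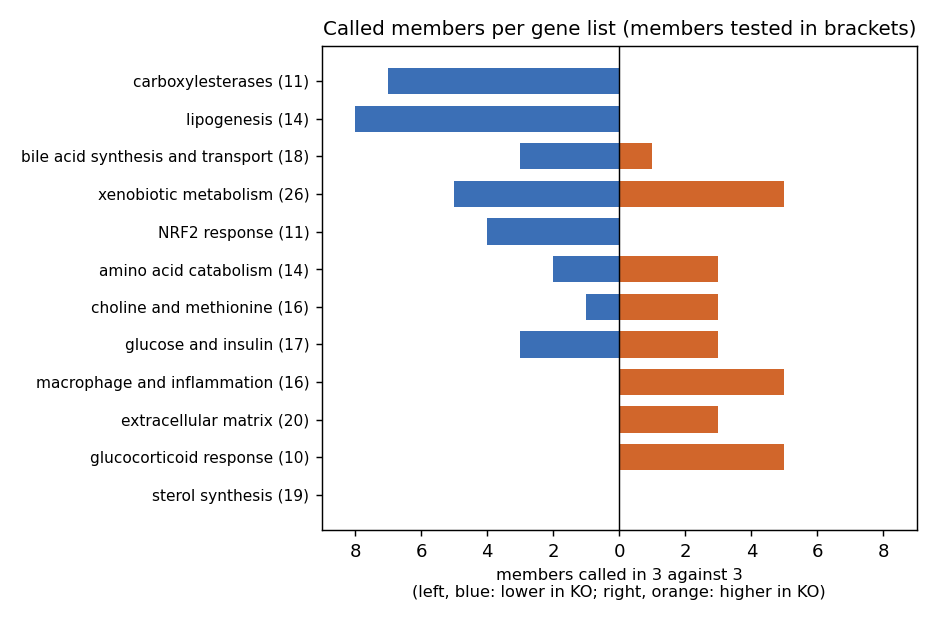
Number of members called lower (left) and higher (right) in Hep-Bmal1KO in 3 against 3 for 12 gene lists, with the number of members tested beside each name. The bars run to the left only for carboxylesterases (7), lipogenesis (8), and the NRF2 response (4), to the right only for macrophage and inflammation (5), extracellular matrix (3), and glucocorticoid response (5), and sterol synthesis has none.

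Of 14 lipogenesis genes tested, 8 were lower (background 0.881%) and none was higher, with a median log2 fold change of -0.62. These were Thrsp, Elovl6, Fasn, Pklr, Mlxipl, Srebf1, Me1, and Acaca. Thrsp, a nuclear protein that promotes lipogenesis, had 126, 171, and 87.2 CPM in WT replicates 2 to 4 and 61.8, 26.6, and 8.95 CPM in KO replicates 2 to 4, with 53.5 and 307 CPM in WT and KO replicate 1. Its log2 fold change was -1.75 (SE 0.22, adjusted p = 2.58e-06). Elovl6, which elongates palmitate, had 103, 176, and 74.4 CPM against 57.2, 29.6, and 23.4 CPM (log2 -1.38, SE 0.17, adjusted p = 1.56e-06). Fasn, the fatty acid synthase, fell by 1.36 (SE 0.19) and Pklr, the liver pyruvate kinase, by 0.94 (SE 0.18). Under DESeq2 and with a shared spread 3 of the 8 remained called, in DESeq2 without Fasn (adjusted p = 0.0980) and Thrsp (0.191), and 4 members were called without KO replicate 2, when the log2 fold change of Pklr was -0.43 (0.609).

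Fitm1, which partitions fat into lipid droplets, fell by 1.84 on the log2 scale (SE 0.26, adjusted p = 1.73e-05), from 35.9, 17.3, and 21.7 CPM in WT replicates 2 to 4 to 6.10, 5.71, and 8.49 CPM in KO replicates 2 to 4. The highest value of all was 48.4 CPM in KO replicate 1. Of 19 sterol synthesis genes none was called in 3 against 3 (3 lower at an unadjusted p under 0.05, and 0 called by DESeq2), with a median of -0.20. On chow at the same time 14 of the 19 were higher in Hep-Bmal1KO (background 4.03%), with a median of 0.66. In the genotype by diet term 4 members passed over 14 libraries, each with a smaller effect on cdHFD. Hmgcs1, an early enzyme of the mevalonate pathway, was the only one of the 4 that also passed over all 16 libraries (difference -1.80, adjusted p = 5.13e-05 over 14 and 1.98e-04 over 16). Its CPM was 65.5, 59.3, and 60.4 in cdHFD WT replicates 2 to 4 and 43.02, 61.5, and 54.9 in KO replicates 2 to 4, and on chow 163 ± 22.6 in WT and 472 ± 71.5 in KO.

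Of 11 carboxylesterases, which cleave esters of drugs and lipids, 7 were lower (Ces1d, Ces1e, Ces1f, Ces1g, Ces1b, Ces2c, and Ces3a) and none was higher, with a median of -0.85. Ces1d (chromosome 8, 93166072 to 93197804), which hydrolyzes stored triglyceride, stood at 475, 383, and 862 CPM in WT replicates 2 to 4 and at 122, 377, and 148 CPM in KO replicates 2 to 4. Among these libraries the lowest WT and the highest KO value lay close, at 383 and 377 CPM, and the females were above the males of the same label. Of the replicate 1 libraries, both male, WT was at 163 CPM of Ces1d and KO at 520 CPM, above both KO females. The log2 fold change was -1.77 (SE 0.20, adjusted p = 4.28e-07), and without the sex term the adjusted p was 0.0739. Ces1g (log2 -1.14), Ces1e (-1.23), and Ces1f (-1.21) had ranges that overlapped between labels and were not called without the sex term either (adjusted p = 0.0742, 0.125, and 0.224). Of the 7 calls 1 was left without that term, 2 with a shared spread, and 4 without WT replicate 4. Ces2g, outside this list, fell by 0.92 (SE 0.16). The Ces1 genes lie side by side and are similar in sequence, so reads may have been split between them.

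Drug metabolism moved both ways, with 5 of 26 genes higher and 5 lower and a median of -0.21. Beside Cyp2a5, its close paralog Cyp2a4 was at 346, 362, and 351 CPM in WT replicates 2 to 4 and at 22.5, 185, and 72.8 CPM in KO replicates 2 to 4 (log2 -2.60, SE 0.33, adjusted p = 3.42e-06), and the counting could divide reads between these 2 genes. Gstm2, a glutathione transferase, was at 166, 202, and 203 CPM against 495, 417, and 384 CPM (log2 1.21, SE 0.14, adjusted p = 4.64e-07). Cyp2b10, the classic target of the receptor CAR, was at 1.16, 1.40, and 8.06 CPM in WT replicates 2 to 4 and at 8.13, 46.4, and 18.04 CPM in KO replicates 2 to 4, which left the highest WT value, in the female, next to the lowest KO value, in the male. Its log2 fold change was 2.21 (SE 0.32, adjusted p = 2.39e-05). Of 11 NRF2 targets 4 were lower (Gsta2, Gsta1, Gstp1, and Gclc), with a median of -0.45, and Osgin1, an oxidative stress-induced growth inhibitor outside this list, fell by 1.04 (SE 0.15). Gsta2 was at 118, 122, and 142 CPM against 45.5, 60.5, and 39.9 CPM (log2 -1.45, SE 0.15, adjusted p = 1.21e-07), and Gsta1, which is nearly identical to it, fell by 1.15 (SE 0.15). Of the 4 calls, 2 remained without the sex term and without each of WT replicate 2, WT replicate 3, and KO replicate 2, and none with a shared spread.

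In bile acid synthesis and transport, 1 of 18 genes was higher and 3 were lower. Cyp7a1 (chromosome 4, 6265612 to 6275632), the rate-limiting enzyme of bile acid synthesis, stood at 26.8, 33.2, and 30.6 CPM in WT replicates 2 to 4 and at 99.8, 64.4, and 55.5 CPM in KO replicates 2 to 4. Both replicate 1 libraries lay on the KO side, at 79.97 CPM in WT and 83.97 CPM in KO. The log2 fold change of Cyp7a1 was 1.36 (SE 0.16, adjusted p = 1.16e-06), and in 4 against 4 it was 0.97 (unadjusted p = 0.00154 in edgeR, adjusted p = 1). Nr0b2, whose product represses Cyp7a1, fell by 1.82 in 3 against 3 (SE 0.21, adjusted p = 4.96e-07), and both calls were lost where all cdHFD libraries shared the spread (adjusted p = 0.262 for Cyp7a1 and 0.279 for Nr0b2). That of Nr0b2 was also lost without the sex term (0.0591). Slc10a1, the sodium-dependent bile acid importer, fell by 0.74 (SE 0.15). Cyp7b1, of the alternative pathway, fell by 0.92 (SE 0.22) and lost its call under 7 of the 12 settings.

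Of 17 sugar genes 3 were called higher (Igfbp1, Ppp1r3g, and Pck1) and 3 lower. None of the 3 higher ones was called without WT replicate 4, the only WT female, without the sex term, with a shared spread, or by DESeq2. Khk and Slc2a2 were among the lower ones. Khk, which phosphorylates fructose, stood at 499, 602, and 401 CPM in WT replicates 2 to 4 and at 208, 260, and 201 CPM in KO replicates 2 to 4, with 221 CPM in WT replicate 1 and 603 CPM in KO replicate 1 (log2 -1.10, SE 0.15, adjusted p = 1.35e-05). Tkfc, the kinase that phosphorylates the glyceraldehyde from fructose, stood at 472, 657, and 357 CPM against 232, 212, and 202 CPM (log2 -1.03, SE 0.15, adjusted p = 2.50e-05). Slc2a2, the glucose transporter GLUT2, fell by 0.66 (SE 0.14, adjusted p = 0.00510) and lost its call under 4 settings. Igfbp1, an insulin-repressed secreted protein, rose by 1.43 (SE 0.33, adjusted p = 0.0104), but its ranges overlapped, with 1153, 520, and 284 CPM against 1016, 1226, and 2216 CPM, and without the WT female the log2 fold change was 0.28 (0.868).

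Of 14 amino acid catabolism genes 3 were higher (Got1, Oat, and Tat) and 2 lower (Hal and Glul). The 5 calls became 2 without WT replicate 4, where Tat, Hal, and Glul were not called, and 1 (Got1) without the sex term and with a shared spread. Got1, the cytosolic aspartate aminotransferase, stood at 85.9, 75.2, and 87.4 CPM in WT replicates 2 to 4 and at 170, 323, and 237 CPM in KO replicates 2 to 4, with 199.5 CPM in WT replicate 1 and 70.6 CPM in KO replicate 1. Its log2 fold change was 1.38 (SE 0.16, adjusted p = 4.96e-07). Agxt, which turns glyoxylate into glycine, stood at 129, 91.1, and 131 CPM against 252, 262, and 224 CPM (log2 1.05, SE 0.14, adjusted p = 1.33e-05). Slc25a22, a mitochondrial glutamate carrier, rose by 0.80 (SE 0.14). Oat rose by 1.31 (SE 0.23), but the female values of 471 CPM in WT and of 890 and 402 CPM in KO overlapped, and without KO replicate 2 its log2 fold change was 0.47 (adjusted p = 0.711).

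Of 16 genes of choline and methionine metabolism 3 were higher (Bhmt, Cbs, and Nnmt) and 1 was lower (Chdh, which oxidizes choline), with a median of 0.02. On chow at ZT14, 8 of the 16 were higher (background 4.03%) and 2 lower (3.94%), with a median of 0.30. Bhmt rose by 1.935 and Cbs by 1.42 on chow. The difference between diets was not called for either gene (edgeR adjusted p = 0.361 for Bhmt and 0.594 for Cbs over 14 libraries). Of the 16 members, 2 were called lower on cdHFD in that term (background 0.437%) and 0 higher (0.264%). Bhmt, which remethylates homocysteine with betaine, stood at 725, 699, and 1195 CPM in WT replicates 2 to 4 and at 1511, 2112, and 1482 CPM in KO replicates 2 to 4 (log2 0.84, SE 0.14, adjusted p = 1.81e-04). Cbs, which commits homocysteine to transsulfuration, stood at 139, 117, and 179 CPM against 271, 290, and 273 CPM (log2 0.87, SE 0.14, adjusted p = 9.27e-05). The groups of 3 did not overlap in either gene, as in 7.34% of all genes with KO above. With the replicate 1 libraries the labels overlapped in both genes. Bhmt was at 1422 CPM in WT replicate 1 and 917 CPM in KO replicate 1, and Cbs at 308 and 127 CPM. No member of this list was called without KO replicate 2, with an adjusted p of 0.175 for Bhmt and 0.0995 for Cbs.

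Some genes of macrophages and matrix were higher. Of 16 macrophage and inflammation genes 5 were higher (Gpnmb, Trem2, Cd9, Lgals3, and Lyz2) and none was lower, with a median of 0.42. Gpnmb, a marker of lipid-associated macrophages, stood at 74.3, 110, and 76.5 CPM in WT replicates 2 to 4 and at 173, 160, and 308 CPM in KO replicates 2 to 4, with 115 CPM in WT replicate 1 and 64.8 CPM in KO replicate 1 (log2 1.26, SE 0.20, adjusted p = 9.27e-05). Trem2, a lipid receptor of the same cells, stood at 22.6, 35.3, and 24.4 CPM against 59.8, 40.9, and 58.4 CPM (log2 1.03, SE 0.18, adjusted p = 4.12e-04). Of 20 extracellular matrix genes 3 were called higher (Timp1, Lum, and Bgn, background 1.09%), with a median of 0.56. At an unadjusted p under 0.05, 13 were higher, where 10.1% of all genes passed in either direction. Timp1, an inhibitor of matrix proteases, rose by 1.02 (SE 0.24, adjusted p = 0.0123) and Lum, a collagen-binding proteoglycan, by 0.77 (SE 0.16, adjusted p = 0.00484). Stellate cells make much of the liver's matrix, and of 7 of their markers 1 was called higher (Acta2), 4 were higher at an unadjusted p under 0.05, and the median was 0.31. Their sums were 536 to 599 CPM in WT replicates 2 to 4 and 692 to 787 CPM in KO replicates 2 to 4. WT replicate 1 was at 670.5 CPM and KO replicate 1 at 474 CPM, the lowest of the 8 libraries. The sums of the groups of 3 did not overlap, as in 7.34% of single genes with KO above. The call of Acta2 held under 7 of the 12 settings. It was lost with DESeq2, the stricter filter, no sex term, and a shared spread, and without KO replicate 2. The part of the stellate cell markers in the matrix values was not tested. The count for the macrophage list was 2 without KO replicate 2, 2 without WT replicate 4, and 1 with a shared spread. That for the matrix list was 0 without WT replicate 4, without the sex term, and with a shared spread, and 8 without KO replicate 3.

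Of 6 Kupffer cell markers edgeR called 0 (1 lower at an unadjusted p under 0.05), with a median of -0.05 and a summed level of 771 to 823 CPM in WT replicates 2 to 4 and of 651 to 846 CPM in KO replicates 2 to 4. Of 10 glucocorticoid-responsive genes 5 were higher (Sgk1, Zbtb16, Gadd45g, Tsc22d3, and Fkbp5) and none was lower, with a median of 0.52. Sgk1, a kinase that regulates sodium channels, stood at 49.8, 52.1, and 42.1 CPM against 102, 70.1, and 107 CPM (log2 1.04, SE 0.16, adjusted p = 6.25e-05). The count of the glucocorticoid list was 0 with a shared spread, 1 without the sex term, 1 without WT replicate 4, and 2 without each of WT replicate 2, KO replicate 2, and KO replicate 3. Saa3, an acute phase protein, fell by 1.07 (SE 0.17, adjusted p = 1.15e-04), and Rrm2, a subunit of ribonucleotide reductase, fell by 0.99 (SE 0.15, adjusted p = 9.81e-05).

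Markers of other tissues and of sex touched some calls. Skeletal muscle genes, a list added after the values were seen, summed to 196 CPM in KO replicate 2 and to between 2.80 and 8.42 CPM in the other 7 libraries. They gave 8 of the 170 higher calls and none without KO replicate 2. The higher calls held 6 further muscle genes outside that list (Myl1, Myl2, Myl3, Myh1, Myh2, and Ckmt2, picked after their values were seen), which also lost their calls without KO replicate 2. Acta1, the skeletal muscle actin, stood at 74.5 CPM there and at 1.36 CPM or less elsewhere. On chow 8 of the 11 members tested were called higher too. Of 3 adipocyte markers 1 was called higher, with a median of 4.41 on the log2 scale. This was Cfd, which stood at 8.45 CPM in KO replicate 2 and at 0.76 CPM or less in the other 7 libraries and was not called without KO replicate 2. Of 5 cholangiocyte markers none was called by edgeR and 3 were higher at an unadjusted p under 0.05, with a median of 0.92 and sums of 36.1 to 41.3 CPM in WT replicates 2 to 4 and of 32.1 to 71.3 CPM in KO replicates 2 to 4. Of 5 erythroid genes 2 were lower, and their sum was 604 to 1369 CPM in WT replicates 2 to 4 and 278 to 983 CPM in KO replicates 2 to 4, overlapping between labels. The hepatocyte markers were present in all 8 libraries, with sums of 110400 to 137200 CPM. Of 11 male-biased liver genes 3 were called lower, 5 were lower at an unadjusted p under 0.05, and the median was -0.78. Cyp7b1, given above with the bile acid genes, is one of these 11. Of 11 female-biased liver genes 2 were called lower and none was called higher. Cyp2c69, a female-biased P450 outside this list, stood at 1.74, 0.52, and 2.14 CPM in WT replicates 2 to 4 and at 3.75, 41.03, and 25.3 CPM in KO replicates 2 to 4, where the 2 high values were the KO females. Its log2 fold change of 3.15 (SE 0.39, adjusted p = 2.58e-06) became 1.75 (0.168) without the only WT female.

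The 307 genes were then read in libraries of other mice, which share no library with the 6. At the other 5 times on cdHFD, with 40 libraries, 101 of the 170 higher genes (59.4%) were called higher and none lower, against 5.81% of all genes, and they made up 11.2% of the 904 calls there. Of the 137 lower genes 115 (83.9%) were called lower and none higher, against 5.86% of all genes, and they made up 12.6% of the 911 calls there. In the chow libraries at ZT14, 72 of the higher genes (42.4%) were called higher and 8 lower, and 91 of the lower genes (66.4%) were called lower and 4 higher, against 4.03% of all genes called higher and 3.94% called lower there. The 2 libraries had been singled out by genes that differ at the other times, so this sharing is not independent of that choice. Acta1 stood apart, with a log2 fold change of 7.203 at ZT14 and of -1.21 over the other times.

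**Figure D5:**
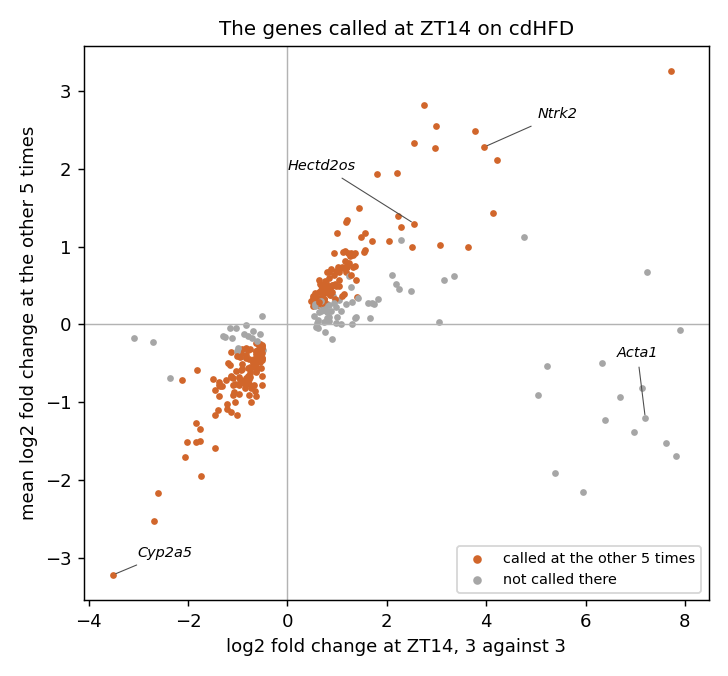
Log2 fold change of the 307 genes called at ZT14 in 3 against 3 (x axis) and the mean log2 fold change over the other 5 times on cdHFD (y axis), colored where also called there. The 170 higher and 137 lower genes lie mainly in the upper right and lower left, and genes such as Acta1 lie to the right with values below 0 on the y axis.

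Asked directly whether the genotype effect at ZT14 differed from its mean over the other times on cdHFD, edgeR called 0 of 15548 genes with all 48 libraries (786 at an unadjusted p under 0.05, or 5.06%) and 0 without the 2 replicate 1 libraries (686, or 4.41%), and DESeq2 called 7 with all 48. Between diets at ZT14, 167 genes (1.07%; 10.1% at an unadjusted p under 0.05) differed in their genotype effect with all 16 libraries, 63 of them higher on cdHFD (0.405%) and 104 lower (0.669%), and 109 (0.701%) without the replicate 1 libraries. Lpl had the smaller rise on cdHFD, since on chow it was at 13.5 ± 6.06 CPM in WT and 259 ± 58.3 CPM in KO (difference -3.19 on the log2 scale, adjusted p = 7.16e-06). Cdkn1a, a cell cycle inhibitor, likewise rose by 0.65 on cdHFD and by 3.66 on chow (difference -2.95, adjusted p = 7.16e-06). Gstm2 and Hectd2os rose on both diets and less on cdHFD (differences -1.68 and -1.61, adjusted p = 6.29e-05 and 0.00276). Clpx, a mitochondrial unfoldase, and Mad2l2, a DNA repair factor, were called on chow alone (log2 2.21 and 1.99), with differences of -2.12 and -1.81. In the other direction, Efhd2, the ganglioside synthase gene St3gal5, the collagen gene Col27a1, Nrg4, and the uridine phosphorylase gene Upp2 were lower in KO on chow (log2 -1.31, -1.73, -4.62, -2.74, and -1.39) and not called on cdHFD, with adjusted p-values of the difference of 1.30e-04 to 6.59e-04. For Nrg4, a growth factor of the EGF family, the cdHFD libraries held 8.496, 15.7, and 13.5 CPM in WT replicates 2 to 4 and 12.7, 16.6, and 9.55 CPM in KO replicates 2 to 4, and chow held 15.6 ± 4.16 and 2.23 ± 0.76 CPM.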

How the data were processed

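Liver RNA of 96 mice was measured by BRB-seq, and 8 libraries entered the main comparison. The authors split reads by sample barcode, mapped them with STAR to mm10, and deposited unnormalized gene counts. The submitters' processing notes name HTSeq, featureCounts, and DESeq2, and versions are not given in the sources used here. Rows of unassigned reads, 24.5% to 26.4% of the reads in the 8 libraries, were left out. Of 55487 genes, 15548 with at least 100 counts over the 96 libraries were tested. Whether reads were collapsed by molecule is not given in the sources used here.

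Counts were tested in R 4.3.3 with edgeR 4.0.16 (TMM, quasi-likelihood test, sex as a term, Benjamini-Hochberg adjustment over all genes tested), and calls have an adjusted p under 0.05. Each library is a separate mouse. The alternatives were DESeq2 1.42.0, its size factors, other count filters, no sex term, males alone, a shared spread, and each library left out. Standard errors were computed from the F statistic, in which edgeR moderates the spread of each gene towards that of all genes. They are therefore not the spread of a gene's own replicates alone. The tests were checked on simulated counts. CPM were scaled within each set of 8 libraries, and library positions on log2 CPM used a prior count of 2 and a weighted projection in place of the planned mean over genes. Genes named were those of the clock lists, up to 4 members of each other list by p in 3 against 3, and the first 10 in each direction of the main comparisons and 5 of the interaction terms, of which those that lead a group are given; unnamed gene models were passed over. Positions are from RefSeq GRCm38.p6, matched by symbol for 14787 genes. Members and lists were chosen with earlier results of these data known. Some genes are not reported here.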

Additional observations from a re-analysis of the deposited data

Results flagged for a closer look

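In 164 groups of 4 values (60 genes, 19 lists and 3 library measures in WT and in KO), 22 had a highest or lowest library far from the other 3. Chance gives about 1 in 20 for groups that were not selected, a rate that does not apply here, because most of these genes were chosen by their p in 3 against 3, which favors close values in replicates 2 to 4 and so sets replicate 1 apart. WT replicate 1 was far from WT replicates 2 to 4 for Cyp2a4 (31.8 CPM), Cyp7a1 (79.97), Got1 (199.5), Slc25a22 (208), Ntrk2 (21.8), Hectd2os (27.7), and Saa3 (76.7), and for the summed CPM of the xenobiotic list (11650 against 15720 to 16400) and of the Kupffer cell markers (1196 against 771 to 823). KO replicate 1 was far from KO replicates 2 to 4 for Cyp2a5 (1105 CPM), Pklr (77.9), Cbs (127), Khk (603), Ntrk2 (1.73), Slc13a3 (28.2), Rrm2 (158), Fitm1 (48.4), and Tkfc (510), and for the summed NRF2 list (4189 against 2587 to 2831). The remaining ones were Nr1d1 in WT replicate 2 (4.25 CPM), Lum in WT replicate 4 (23.04 CPM), and the summed skeletal muscle genes in KO replicate 2 (196 CPM).

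The genotype effect differed between the diets at ZT14, by the interaction term of edgeR over 14 libraries with Benjamini-Hochberg adjustment, for 13 of the 60 genes. It was lower on cdHFD for Arntl (-2.38), Npas2 (-3.65), Cry1 (-1.60), Gstm2 (-1.68), Hectd2os (-1.61), Spon2 (-1.39), Lpl (-3.19), and Ces2g (-0.97), all on the log2 scale, and higher for Dbp (2.54), Nr1d1 (2.42), Nr1d2 (1.96), Alas1 (1.80), and Gys2 (1.17). With all 16 libraries the adjusted p rose to 0.113 for Arntl, 0.102 for Spon2, and 0.445 for Ces2g.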

How the results depend on the processing

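No paired analysis was possible because the labels give no replicate numbers. In 4 against 4 the count of calls, 0 in edgeR, was 1 with DESeq2 and 75 with no filter beyond 1 count, and ranged from 0 to 59 with 1 library left out; it was 0 with DESeq2 size factors, the stricter filter, no sex term, a shared spread, and males alone. In 3 against 3 the 307 calls became 166 with DESeq2, 149 with at least 10 counts in at least 4 libraries, 91 without the sex term, and 37 with a shared spread, and ranged from 151 to 397 with 1 library left out, with the lowest count without KO replicate 2. DESeq2 size factors gave 309 and the looser filter 436. Of the 307 genes, 91 remained called without the sex term, 164 with DESeq2, and 104 without KO replicate 2, where 10 changed sign. For genotype by diet, 167 calls became 277 with DESeq2, 84 without the sex term, and 109 without the 2 replicate 1 libraries. For ZT14 against the other times, 0 calls became 7 with DESeq2. The cause of these changes was not tested. Of the 60 genes followed, no called gene changed sign. The main limits are 3 or 4 mice per label, a single WT female, 2 libraries that in part go against their labels, and plate columns that match genotype.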
